A study of Mus musculus with 2 samples.

Results

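The granule docking and exocytosis machinery, 38 genes taken by symbol from the 31054 features of both libraries, was followed across the hormone-producing cells of mouse islets. The 38 genes comprised 7 SNAREs, 5 SNARE regulators, 6 synaptotagmins, 6 Rab GTPases, 5 Rab effectors, 7 priming and calcium factors and 2 granule membrane phosphatases, and all 38 symbols were found. Islets of 12-week-old male Tg7 mice, in which miR-7a2 is overexpressed specifically in β-cells, were compared with islets of 12-week-old male Wild-type littermates, both on a C57Bl6 background and measured by droplet single-cell RNA-seq (10x Genomics). Per the study, the islets of both genotypes came from mice that also bore a rat Ins2-Cre transgene and a floxed-Stop tdTomato allele at Rosa26, which labels β-cells. No source used here names the promoter of the miR-7a2 transgene or how many mice stood behind a library. Each genotype was 1 library. No test between genotypes was therefore possible, no difference has a replicate check, and each interval in brackets is a 95% interval for counting error alone.

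The Tg7 library held 992 cells after filtering and the Wild-type library 749, from 29931777 and 30829078 deposited UMIs, and the libraries shared 0 barcodes. A cell was put in a class when it was positive for insulin, Gcg, Sst or Ppy alone. This gave 532 Tg7 and 480 Wild-type insulin cells, 149 and 133 Gcg cells, 11 and 22 Sst cells, and 22 and 11 Ppy cells. A further 229 Tg7 and 59 Wild-type cells held several hormones. The median depth of insulin cells was 28108.5 UMIs in Tg7 and 49556.5 UMIs in Wild-type, but the depth without the 7 hormone genes was alike, at 14803.5 and 14583 UMIs. Levels are therefore given as UMIs per 10000 non-hormone UMIs, and a ratio is Tg7 over Wild-type on that scale. Sst cells were shallow, with a median of 6409 UMIs in Tg7 and 7883 UMIs in Wild-type. The 9 β-cell markers beyond hormones that were checked in insulin cells summed to 10.2 per 10000 in Tg7 and 78.5 per 10000 in Wild-type, with all 9 detected in each. The 8 α-cell markers summed to 48.4 per 10000 in Tg7 insulin cells, ranging from 0 to 209 per cell with 8 of 8 detected, and to 28.6 in Wild-type insulin cells, ranging from 0 to 123 with 5 of 8 detected and Irx1 and Pou3f4 among those at 0. The 5 duct markers summed to 6.63 per 10000 in Tg7 insulin cells, with Krt19 and Cftr at 0, and to 2.51 in Wild-type insulin cells, with Cftr at 0. The part of these markers in the results below was not tested.

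Insulin, glucagon and somatostatin leave islet cells in dense-core granules. Small GTPases of the Rab3 and Rab27 families sit on the granule and recruit effectors that hold it at the plasma membrane, priming factors of the Munc13 and CAPS families ready it, and SNARE proteins on granule and plasma membrane zip together to fuse it. Synaptotagmins and Doc2b couple fusion to calcium, and complexins, tomosyns and the disassembly pair NSF and α-SNAP control how many SNAREs are free to act.

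Because the transgene is a microRNA, the 3′ UTRs of the members were searched for the complement of its seed. The mature miR-7a-5p of the Mir7-2 gene (chr7:78888295-78888317, plus strand, GRCm38.p6, from RefSeq) is shown with its seed, bases 2 to 8, in capitals. Below it stand the 26-base windows in which 6 measured members hold the matching letters GTCTTCC, in capitals, on the transcribed strand of the longest annotated 3′ UTR, written as DNA.
miR-7a-5p: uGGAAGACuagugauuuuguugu
Rab3b: tgccattctgcagaggGTCTTCCccc
Rab3c: caaaaactacacatttGTCTTCCcag
Napa: atatgaccagataactGTCTTCCtgt
Nsf: gcctattagtgccatcGTCTTCCttt
Cplx2: ttcagagaagacagacGTCTTCCctg
Doc2b: atccctgaacagtcccGTCTTCCaac
In the NCBIM37 annotation, which is older than the mm10 build of the files, each window lies within 1 exon. The Rab3b window is at chr4:108615178-108615203 on the plus strand and the Rab3c window at chr13:110849095-110849120 on the minus strand. The Napa window is at chr7:16703235-16703260 on the plus strand and the Nsf window at chr11:103683803-103683828 on the minus strand. The Cplx2 window is at chr13:54483225-54483250 on the plus strand and the Doc2b window at chr11:75582941-75582966 on the minus strand. Cplx1, which holds 4 matches, is the other member with a match, and it had 3 UMIs in Tg7 insulin cells and 0 in every other class. In all, 7 of the 37 members with an annotated 3′ UTR held GTCTTCC (18.9%), against 11.2% of 20007 annotated genes, whose 3′ UTRs were shorter (median 1537 bases in the members and 891 bases in all genes). Among annotated genes measured in insulin cells, the shares were closer, at 17.1% of members and 13.6% of all genes. A match is a run of letters, whether or not it is bound, and Sytl4, the member with the lowest ratio below, held none.

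In insulin cells, 36 of the 38 members reached 20 UMIs over both libraries. Of these, 5 were at least 2-fold higher in Tg7 and 2 at least 2-fold lower, where 9.93% of all 12614 genes measured were at least 2-fold higher and 6.29% at least 2-fold lower. The 5 higher members were Rab3b, Rab3c, Rab27b, Syt5 and Ptprn2, and the 2 lower were Sytl4 and Doc2b. The median log2 ratio of the members was -0.082, beside -0.027 over all genes. The counting interval lay above 1 in 13 members, below 1 in 15, and held 1 in 8. The share of UMIs on hormone genes was 43.4% in Tg7 and 67.7% in Wild-type insulin cells, so the scaling bears on every direction. Scaled to all UMIs instead, the median log2 ratio was 0.78 over all genes and 0.73 over the members, 14 members were at least 2-fold higher and 2 lower, and only Sytl4 and Doc2b stayed below 1. Ratios are best read against the median of all genes.

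**Figure D1:**
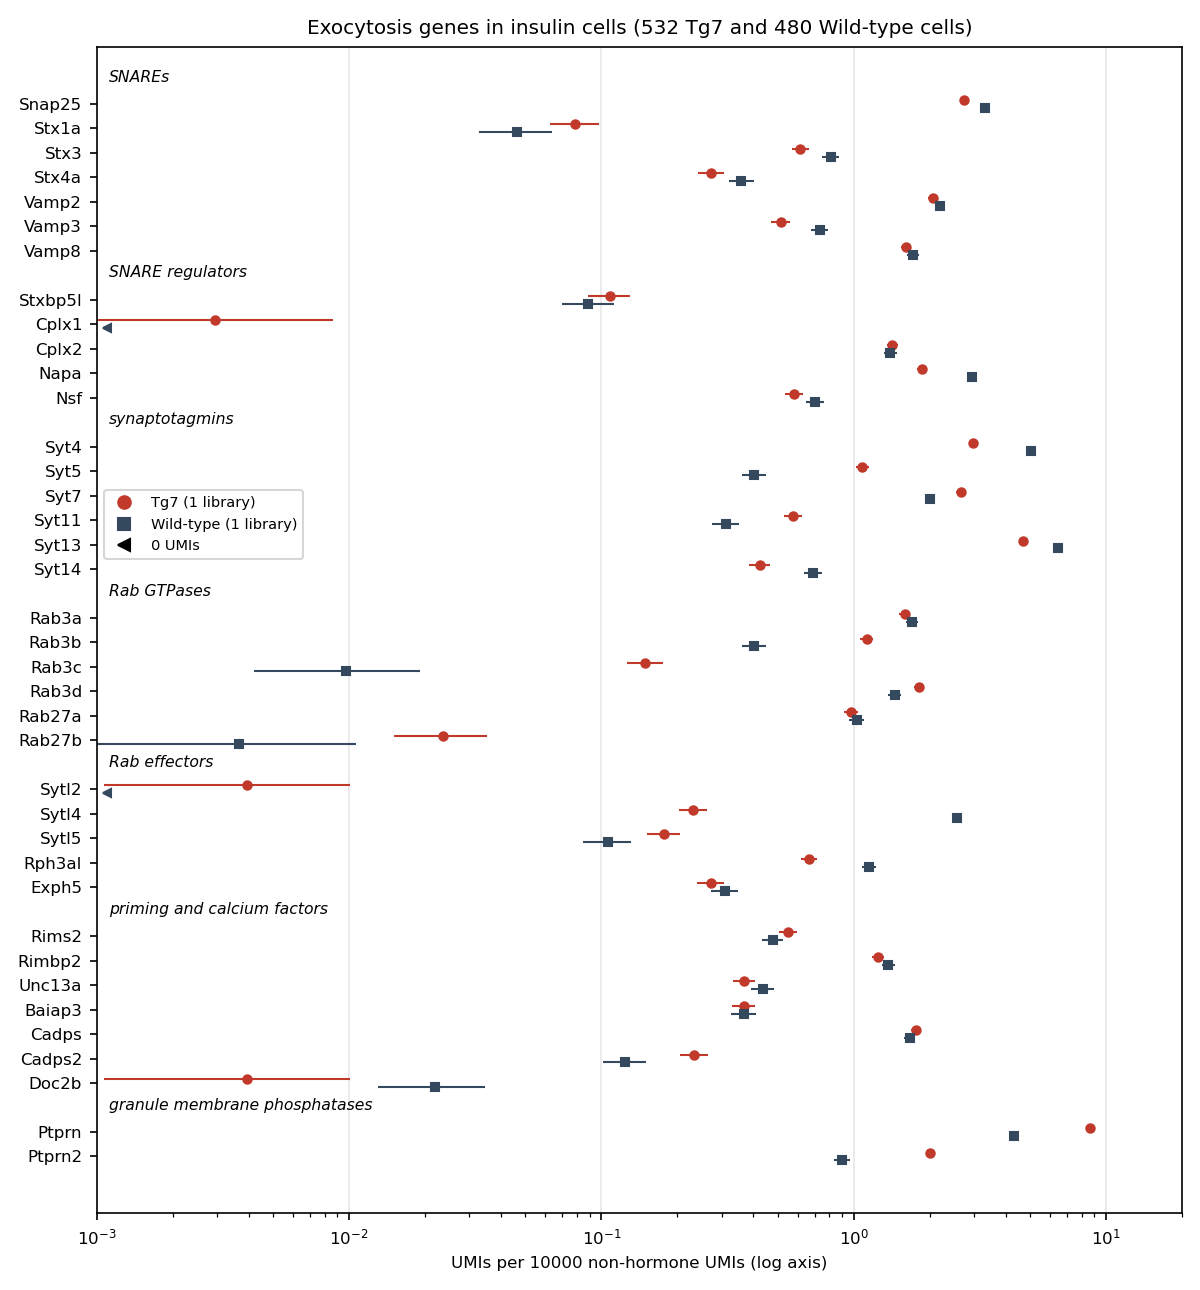
Level of each of the 38 members in insulin cells, as UMIs per 10000 non-hormone UMIs on a log axis, grouped by role. Points are the 1 library of each genotype, Tg7 drawn above Wild-type, bars are exact Poisson 95% intervals (counting error only, cut off at the left edge), and arrowheads mark 0 UMIs. Sytl4 stands at 0.231 in Tg7 and 2.58 in Wild-type, Rab3c at 0.149 and 0.00974, and most SNAREs lie close together.

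Sytl4 encodes granuphilin, an effector that binds Rab27a on the insulin granule and syntaxins at the plasma membrane and holds granules docked. It had 235 UMIs in Tg7 insulin cells and 2115 UMIs in Wild-type insulin cells, or 0.231 [0.202 to 0.262] and 2.58 [2.47 to 2.69] per 10000. The level was 11.2-fold lower in Tg7 [9.74 to 12.8], which placed Sytl4 at rank 59 from the lowest among 12614 genes, and its ratio was 0.157 when scaled to all UMIs. Sytl4 was lower beside a lower sum of the 9 β-cell markers, 10.2 and 78.5 per 10000, whose part in the ratio was not tested. A Sytl4 UMI was seen in 160 of 532 Tg7 and 435 of 480 Wild-type insulin cells, and no single cell held more than 4 of its UMIs in Tg7 or 22 in Wild-type. The other measured Rab effectors lay closer to 1, on both sides of it on the non-hormone scale. Rph3al, which encodes the Rab effector Noc2, was counted 678 times in Tg7 and 945 times in Wild-type, a ratio of 0.579 [0.524 to 0.640], but 1.01 scaled to all UMIs. Exph5, the Rab27 effector Slac2-b, was at 0.271 and 0.308 per 10000, with a ratio of 0.880 [0.740 to 1.05] that was 1.54 scaled to all UMIs. Sytl5, another Rab27 effector, had the opposite direction, with 180 UMIs (Tg7) and 87 UMIs (Wild-type) and a ratio of 1.67 [1.29 to 2.18]. Sytl2, an effector described on glucagon granules of mouse α-cells, had 4 Tg7 UMIs and 0 Wild-type UMIs in insulin cells and was not compared.

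Among the Rab GTPases the paralogs of the Rab3 family differed. Rab3a lay near 1 and Rab3d was above 1 by less than 2-fold, while Rab3b and Rab3c were at least 2-fold higher in Tg7. Rab3b was at 1.12 [1.06 to 1.19] per 10000 in Tg7 and 0.403 [0.361 to 0.449] in Wild-type, from 1145 and 331 UMIs, a ratio of 2.79 [2.47 to 3.16]. Rab3b was also high in Sst cells, and the 7 δ-cell markers, all detected, summed to 4.42 per 10000 in Tg7 and 2.36 in Wild-type insulin cells, against 59.8 and 78.0 in Sst cells; their part in the ratio was not tested. Rab3c was almost silent in Wild-type insulin cells, with 8 UMIs in 8 of 480 cells, and had 152 UMIs in 114 of 532 Tg7 cells. This gave 0.149 per 10000 in Tg7 against 0.00974 in Wild-type, a ratio of 15.3 [7.59 to 36.2]. With every cell weighted equally in both libraries the Rab3c ratio was 4.06, and the cause of that drop was not tested. Rab3c was most abundant in Gcg cells. The sum of the 8 α-cell markers was also higher in Tg7 than in Wild-type insulin cells, at 48.4 and 28.6 per 10000. That was not tested as a source of the Rab3c UMIs. Rab3d, known from granules of exocrine and endocrine cells, had a ratio of 1.24 [1.16 to 1.34], and 2.18 scaled to all UMIs. Rab3a, the most studied Rab of regulated secretion, had one of 0.933 [0.868 to 1.003], and 1.63 scaled to all UMIs. Rab27a, the main Rab27 of β-cells, was at 0.978 in Tg7 and 1.03 per 10000 in Wild-type, a ratio of 0.949 [0.865 to 1.04] that was 1.66 scaled to all UMIs. Its paralog Rab27b rested on 24 Tg7 and 3 Wild-type UMIs, a ratio of 6.46 [1.96 to 33.5]. Both Rab3b and Rab3c, the paralogs at least 2-fold higher with at least 100 UMIs, hold a seed match in the windows printed above.

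The 6 synaptotagmins split evenly, 3 higher and 3 lower in Tg7 insulin cells on the non-hormone scale. Syt5, a calcium sensor of dense-core granules, was counted 1100 times in Tg7 and 332 times in Wild-type, or 1.08 and 0.404 per 10000, a ratio of 2.67 [2.36 to 3.03]. Syt11, which does not bind calcium, had a ratio of 1.84 [1.59 to 2.14], and Syt7, the best-known calcium sensor for insulin and glucagon release, one of 1.32 [1.24 to 1.41]. On the other side, Syt4, which acts in granule maturation and lowers calcium sensitivity in β-cells, was at 2.96 [2.86 to 3.07] per 10000 in Tg7 and 5.04 [4.89 to 5.19] in Wild-type. Its ratio was 0.588 [0.561 to 0.616], but 1.03 scaled to all UMIs. Syt13, another synaptotagmin without calcium binding, was at 4.69 and 6.43 per 10000, a ratio of 0.729 [0.701 to 0.758] that turned to 1.28 scaled to all UMIs. Syt14, which also lacks calcium binding, had a ratio of 0.615 [0.541 to 0.698], and 1.08 scaled to all UMIs.

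Both receptor-type phosphatase homologues of the granule membrane were higher in Tg7. Ptprn, known as IA-2 and as an autoantigen of type 1 diabetes, reached 8780 UMIs in Tg7 insulin cells and 3555 in Wild-type, or 8.63 [8.45 to 8.81] and 4.33 [4.19 to 4.47] per 10000. Its ratio of 1.99 [1.92 to 2.07] fell just short of 2-fold. Ptprn2, or phogrin, was at 2.02 per 10000 in Tg7 and 0.897 in Wild-type, from 2051 and 737 UMIs, a ratio of 2.25 [2.06 to 2.45], just inside that limit.

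Of the 7 SNAREs of the fusion core, 0 passed 2-fold in either direction, beside 9.93% of all genes higher and 6.29% lower. The plasma membrane SNARE Snap25 was at 2.74 per 10000 in Tg7 and 3.31 in Wild-type, a ratio of 0.827 [0.784 to 0.872]. Vamp2, its partner on the insulin granule, had a ratio of 0.935 [0.877 to 0.996], and Vamp8 one of 0.940 [0.875 to 1.01]. Vamp3, a widely expressed relative of Vamp2, and the plasma membrane syntaxins Stx3 and Stx4a, with ratios of 0.700, 0.760 and 0.758, were also lower on the non-hormone scale, and all 6 of these SNAREs had ratios between 1.22 and 1.64 scaled to all UMIs. Stx1a, the neuronal plasma membrane syntaxin, was the exception, with 80 Tg7 and 38 Wild-type UMIs and a ratio of 1.70 [1.141 to 2.57], which was 2.97 and so past 2-fold scaled to all UMIs. Of the SNARE regulators, Napa, which encodes α-SNAP and carries a seed match, was at 1.87 [1.79 to 1.96] per 10000 in Tg7 and 2.95 [2.84 to 3.07] in Wild-type. Its ratio was 0.633 [0.596 to 0.673], but 1.11 scaled to all UMIs. Its partner Nsf, the ATPase that takes spent SNARE complexes apart, had a ratio of 0.828 [0.737 to 0.930], and 1.45 scaled to all UMIs. The intervals of Cplx2, the complexin of β-cells, and of Stxbp5l, the tomosyn that holds SNAREs back, both contained 1, with ratios of 1.02 and 1.22. Cplx1, the other complexin, had 3 Tg7 UMIs and 0 Wild-type UMIs in insulin cells, and was not compared.

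Priming factors lay close to 1 with 2 exceptions. Unc13a, the Munc13-1 priming protein, had a ratio of 0.843 and the scaffold Rimbp2 one of 0.910, both above 1 scaled to all UMIs, while Rims2, its active zone partner, had 1.15 and Cadps, the CAPS1 priming protein, 1.06. Baiap3, a Munc13 relative of dense-core vesicle traffic, was at 0.366 per 10000 in Tg7 and in Wild-type. Cadps2, which encodes CAPS2, had 238 Tg7 and 102 Wild-type UMIs and a ratio of 1.88 [1.49 to 2.40]. Doc2b, a calcium sensor for insulin granule fusion, was rare, with 4 Tg7 and 18 Wild-type UMIs and a ratio of 0.179 [0.0441 to 0.544].

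**Figure D2:**
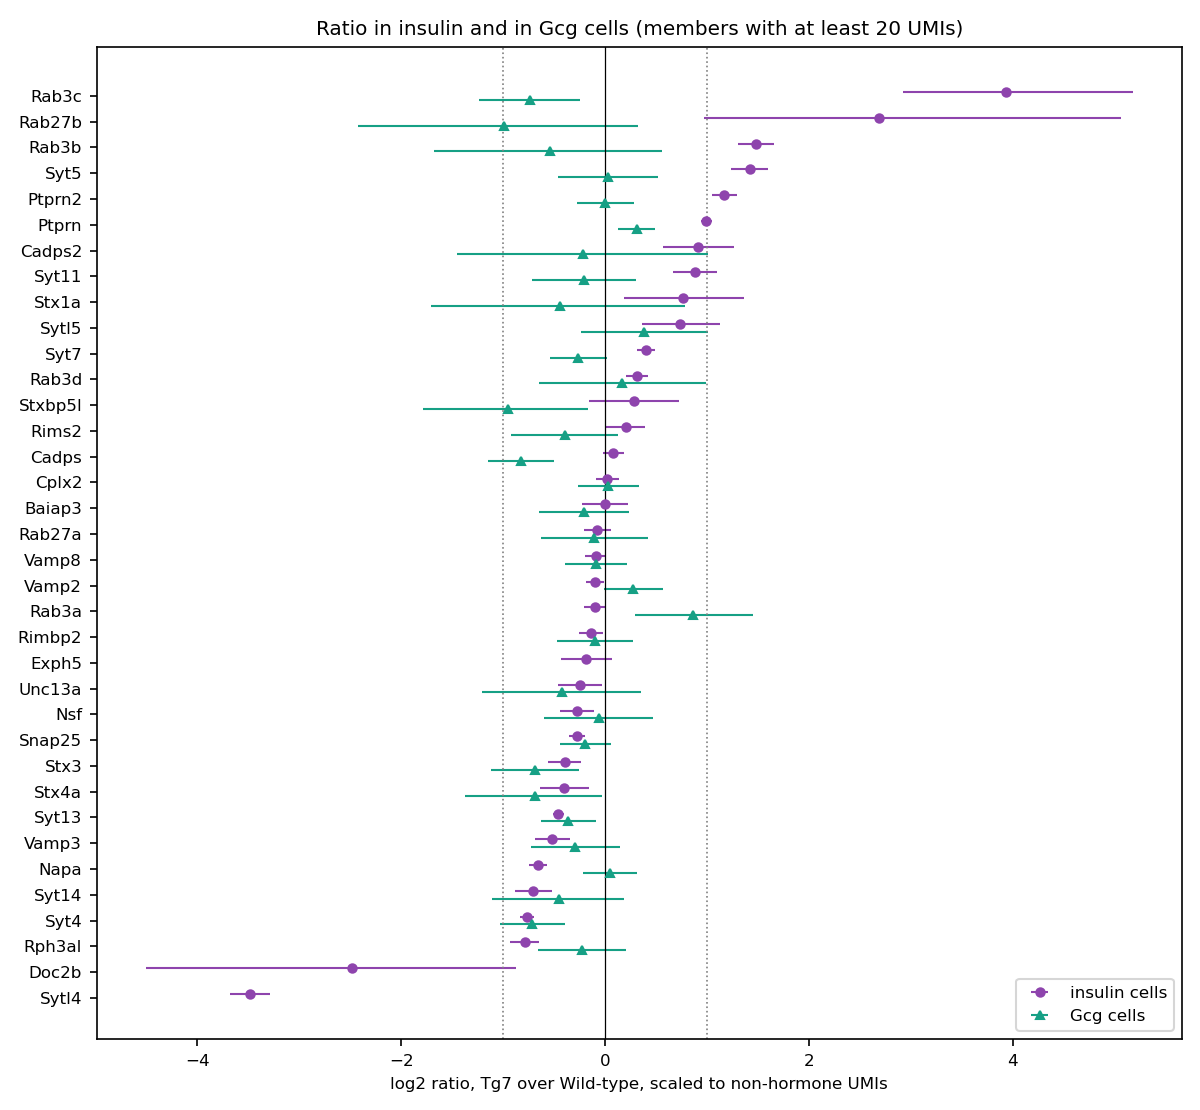
Tg7 level over Wild-type level, as a log2 ratio, for members with at least 20 UMIs, in insulin cells (circles) and in Gcg cells (triangles), scaled to non-hormone UMIs, with conditional exact binomial 95% intervals for counting error. Dotted lines mark 2-fold. In insulin cells the ratios reach from 0.0897 for Sytl4 to 15.3 for Rab3c, whereas all Gcg ratios lie between the dotted lines. Rab27b (0.504) and Stxbp5l (0.516) do so only narrowly in Gcg cells. Scaled to all UMIs, only Sytl4 and Doc2b stay to the left of 0 in insulin cells.

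Shares of cells with a UMI were compared after each cell was thinned to 2000 non-hormone UMIs, which left out 15 Tg7 and 4 Wild-type insulin cells. At that depth a Sytl4 UMI was found in 4.84% of 517 Tg7 insulin cells [3.15 to 7.06] and in 37.8% of 476 Wild-type insulin cells [33.4 to 42.3]. Ptprn was found in 80.5% of Tg7 and 50.8% of Wild-type insulin cells, and Ptprn2 in 31.1% and 17.4%. Syt5 reached 19.1% in Tg7 and 6.93% in Wild-type, Rab3b 19.0% and 7.14%, and Rab3c 2.32% of Tg7 cells against 0 of 476 Wild-type cells. A count of 0 is taken to allow 3 cells, here 0.630%, and the exact 95% upper limit is 0.772%. Without thinning, Tg7 and Wild-type shares were 30.1% and 90.6% for Sytl4, 98.3% and 97.1% for Ptprn, 89.1% and 74.2% for Ptprn2, 77.1% and 47.3% for Syt5, 74.2% and 45.4% for Rab3b and 21.4% and 1.67% for Rab3c. At equal depth each of the higher members was thus seen in more Tg7 than Wild-type insulin cells. Endothelial and macrophage cells served as a limited background for free RNA, at 30 cells per library and a median depth of 4792 UMIs in Tg7 and 7914 UMIs in Wild-type. They were taken only from cells negative for insulin, Gcg, Sst and Ppy. Cells with much free hormone RNA were thus left out beforehand, and the background may be too low. At 2000 UMIs, 0 of these 30 cells in either library had a UMI of the 6 genes, which allows up to 10%, while Napa was found in 23.3% of them in Tg7 and 16.7% in Wild-type. Without thinning, Sytl4 and Ptprn were each found in 0 of 31 such cells in Tg7 and 1 of 31 in Wild-type (3.23%).

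**Figure D3:**
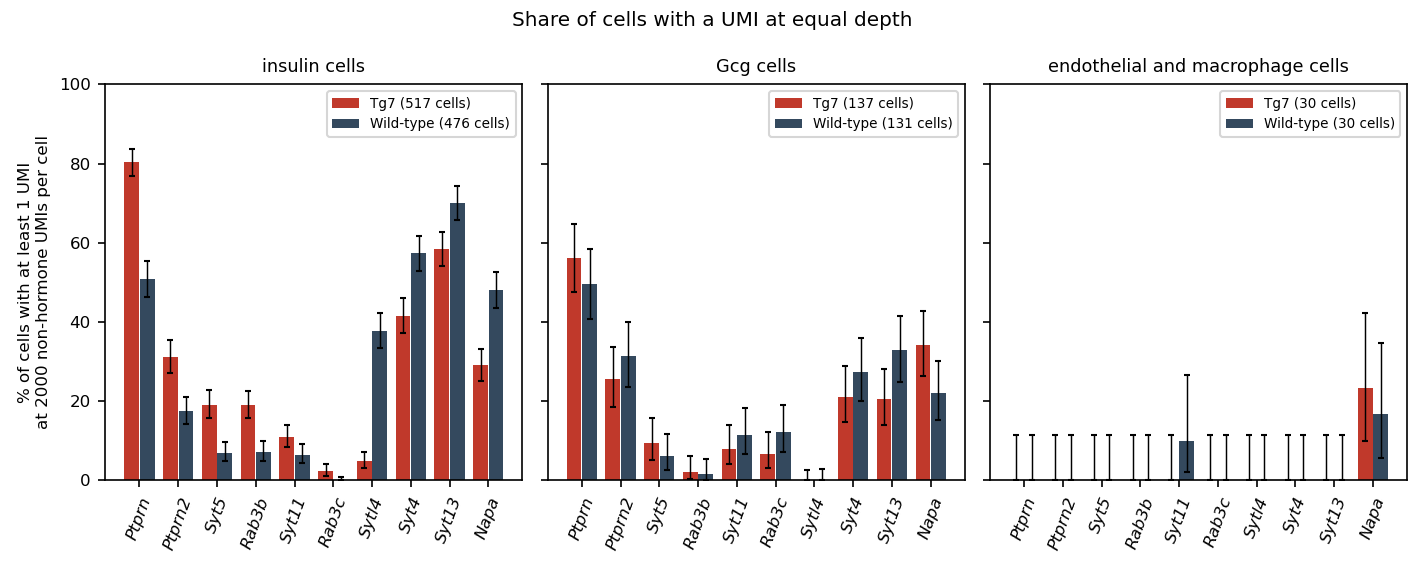
Percent of cells with at least 1 UMI of 10 members after thinning to 2000 non-hormone UMIs per cell, in insulin cells, Gcg cells and endothelial and macrophage cells of the Tg7 (left bar) and Wild-type (right bar) library, with exact Clopper-Pearson 95% intervals. Sytl4 is found in 4.84% of Tg7 and 37.8% of Wild-type insulin cells and in 0 cells of the other panels.

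Gcg cells also release their hormone from granules but are not the cells the transgene is stated to act in. There, 34 members were measured and 0 were at least 2-fold higher or lower, where 2.19% of 8723 genes were at least 2-fold higher and 3.89% lower. Rab27b (0.504) and Stxbp5l (0.516) fell just short of 2-fold lower, and in several alternatives 1 or 2 members passed. The median log2 ratio of the members was -0.21, beside -0.072 over all genes. The 8 α-cell markers summed to 715 per 10000 in Tg7 and 604 in Wild-type Gcg cells, 5 duct markers to 5.77 and 2.41 with Krt19 and Cftr at 0 in both, and 6 stellate or fibroblast markers to 0.397 and 0.0866 with 3 of 6 detected in each. Their part in the Gcg ratios was not tested. The interval lay above 1 for Rab3a and Ptprn and below 1 for 7 members. Rab3a had 74 Tg7 UMIs and 41 Wild-type UMIs in Gcg cells, a ratio of 1.82 [1.23 to 2.73], and Ptprn had 554 and 450 UMIs, a ratio of 1.24 [1.09 to 1.41]. The 7 lower members were Cadps (0.567), Stxbp5l (0.516), Rab3c (0.600), Syt4 (0.611), Stx4a (0.620), Stx3 (0.623) and Syt13 (0.780). With every cell weighted equally Stx4a was at 0.932. Sytl4 had 0 UMIs in the Gcg cells of both libraries, so no ratio could be formed, and at equal depth 0 of 137 Tg7 and 0 of 131 Wild-type Gcg cells allow shares up to 2.19% and 2.29%.

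Between insulin and Gcg cells, 23 members had at least 100 UMIs in each class, and the log2 ratios differed by more than 1 in 4 of them. Rab3c was widest apart, with log2 ratios of 3.94 in insulin and -0.74 in Gcg cells. Syt5 had 1.42 and 0.03, Ptprn2 1.17 and 0.00, and Syt11 0.88 and -0.20. Rab3a was farthest the other way, at -0.10 in insulin and 0.86 in Gcg cells. Scaling to all UMIs raises every gap by the same amount, so the count of 4 holds for the non-hormone scale. On the scale of all UMIs the Rab3a ratios were close, at 1.63 in insulin and 1.65 in Gcg cells. Whether the classes differ could not be tested with 1 library per genotype. On the non-hormone scale Syt4 had close ratios in both classes, 0.588 in insulin and 0.611 in Gcg cells, but this closeness depended on the processing. Scaled to all UMIs, the Syt4 ratio was above 1 in insulin cells, at 1.03, and below 1 in Gcg cells. Over the other alternatives it ran from 0.604 to 0.809 in Gcg cells and from 0.585 to 0.594 in insulin cells.

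Sst and Ppy cells were too few for more than a description. In Sst cells 15 members were measured, 0 were at least 2-fold higher and 2 lower (Snap25 with 4 Tg7 and 21 Wild-type UMIs, and Stx3 with 3 and 19), beside 4.46% and 7.38% of 1815 genes. All 15 intervals held 1, and the median log2 ratio of -0.21 moved between -0.41 and 0.23 over the alternatives. In Ppy cells 20 members were measured and 2 were at least 2-fold higher, beside 6.97% of 2667 genes, and 0 lower, beside 4.35%. The 2 higher were Rab3d, with 24 Tg7 and 4 Wild-type UMIs and a ratio of 3.46 [1.19 to 13.7], and Ptprn2, with 54 and 12 UMIs and a ratio of 2.60 [1.37 to 5.33]. Ptprn (124 Tg7 and 36 Wild-type UMIs) and Syt13 (82 and 26) also had intervals above 1, with ratios of 1.99 [1.36 to 2.97] and 1.82 [1.16 to 2.95]. Macrophage markers summed to 11.9 per 10000 in Tg7 Ppy cells, nearly all in 1 cell at 605 per 10000, and to 0.880 in Wild-type Ppy cells. Their part in the Ppy ratios was not tested beyond leaving that cell out, which changed the count of members past 2-fold by less than 1.5 times.

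The classes were also compared within each library. In Wild-type islets, 4 of 33 members with enough UMIs were at least 2-fold higher in insulin cells than in each other class (5.96% of 8689 genes were), 3 were so in Sst cells (3.56% of genes), and 0 in Gcg cells (0.621%) or Ppy cells (1.86%). The 4 insulin members were Sytl4, Rab3d, Syt4 and Syt13. Sytl4 was at 2.58 per 10000 in Wild-type insulin cells and 0.264 in Ppy cells, with 0 UMIs in Gcg and Sst cells, which puts insulin cells at least 109-fold above Gcg cells with a floor of 3 UMIs over the class (exact 95% lower limit 88.6). Rab3d was at 1.45 per 10000 in insulin cells, and its levels of 0.359 in Sst, 0.352 in Ppy and 0.205 in Gcg cells had overlapping intervals. Syt4 and Syt13 had overlapping levels in the other 3 classes too, between 1.005 and 1.76 for Syt4 and between 1.72 and 2.29 for Syt13. The 3 Sst members were Stxbp5l, Rab3b and Baiap3. Stxbp5l was at 2.08 [1.39 to 2.99] per 10000 in Wild-type Sst cells and at most 0.352 elsewhere, Rab3b at 2.23 [1.51 to 3.16] and at most 0.704, and Baiap3 at 2.08 [1.39 to 2.99] and at most 0.748.

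In Tg7 islets 1 of 33 members, Rab3a at 1.59 per 10000, was at least 2-fold above each other class in insulin cells (3.96% of 9166 genes), though its interval overlapped that of Sst cells, with 4 UMIs. Sytl4 was at 0.231 in Tg7 insulin cells and 0.254 [0.0824 to 0.592] in Tg7 Ppy cells, which overlap. In Tg7 Sst cells Stx4a, Stxbp5l and Baiap3 passed (8.32% of genes), but the intervals of Stx4a, with 3 Sst UMIs, and of Baiap3, with 7, overlapped those of the next class, and 0 members passed in Gcg cells (0.775%) or Ppy cells (1.27%). In Wild-type, Rab3a had missed the limit in insulin cells narrowly, at 1.70 per 10000 against 0.861 in Sst cells.

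**Figure D4:**
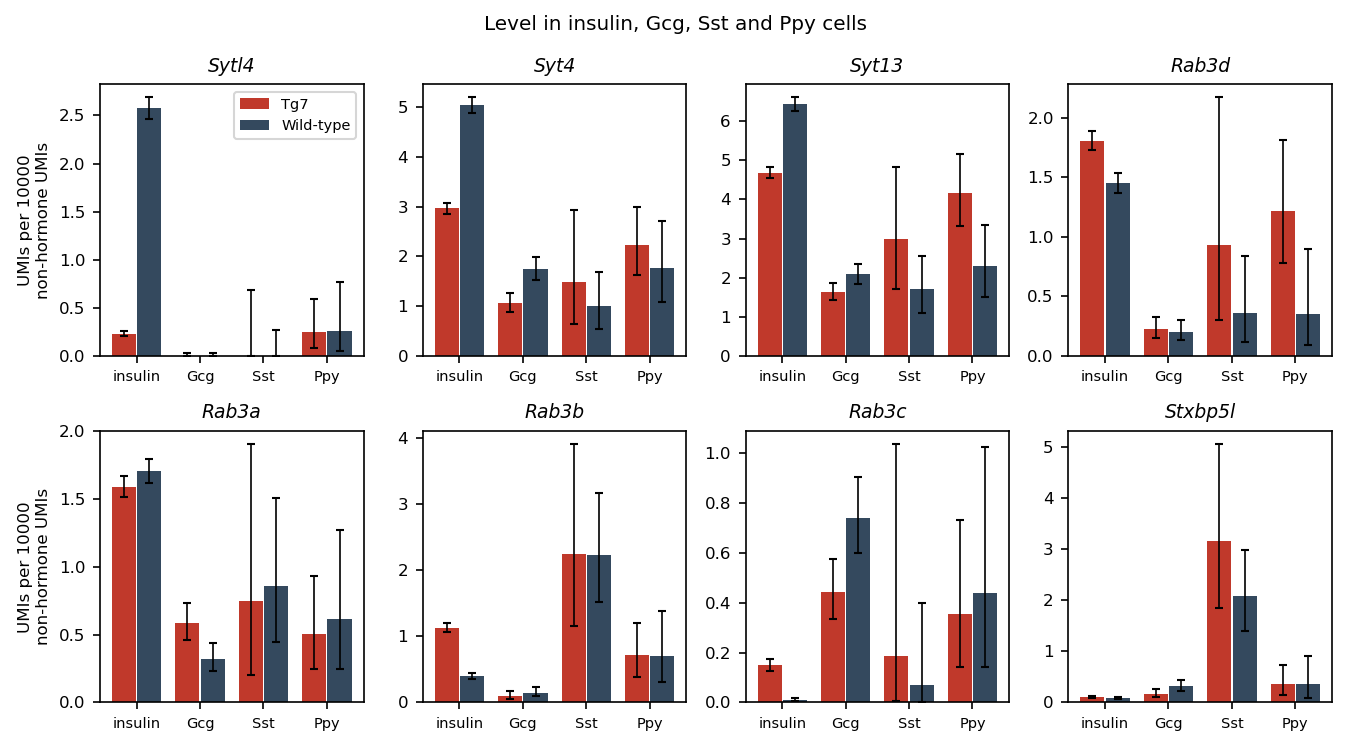
Level of 8 members in insulin, Gcg, Sst and Ppy cells, as UMIs per 10000 non-hormone UMIs, in the Tg7 (left bar) and Wild-type (right bar) library, with exact Poisson 95% intervals. Each panel has its own axis from 0. Sytl4 is tall only in Wild-type insulin cells (2.58), and Rab3c is tallest in Gcg cells (0.444 in Tg7 and 0.740 in Wild-type).

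Set directly against Gcg cells, insulin cells of Tg7 had 9 members at least 2-fold higher and 4 lower of 36 (23.5% and 4.73% of 12047 genes), and those of Wild-type 7 higher and 6 lower of 35 (22.2% and 6.76% of 11402 genes). Scaled to all UMIs the Wild-type counts were 4 higher and 12 lower. Syt4, Syt13, Rab3a, Rab3b, Rab3d, Sytl4 and Exph5 were on the higher side in both libraries, while Rab27a (2.02-fold in Tg7 and 1.98-fold in Wild-type) and Cadps2 (2.46-fold and 1.13-fold) passed the limit in Tg7. Rab3c, Sytl2 and Sytl5 were on the lower side in both libraries. Rab27b was counted on the lower side in Tg7, with 24 insulin-cell and 8 Gcg-cell UMIs, and its 3 and 16 UMIs in Wild-type lay the same way but under the minimum of 20. Stx1a, Stxbp5l and Baiap3 passed on the lower side in Wild-type, at 0.901-, 0.649- and 0.563-fold in Tg7 and 0.392-, 0.275- and 0.490-fold in Wild-type. Differences between the libraries were not tested. Rab3c was 2.98-fold higher in Gcg than in insulin cells in Tg7 [2.15 to 4.07] and 76.0-fold higher in Wild-type [37.0 to 181]. For Rab3b, insulin cells stood 10.9-fold above Gcg cells in Tg7 [6.35 to 20.5] and 2.69-fold above them in Wild-type [1.70 to 4.53].

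The wider pathway gives the setting for these members. Of 113 other genes of SNARE fusion, Rab cycling, priming, granule membranes and the exocyst, 96 were measured in insulin cells. In Tg7, 10 of the 96 were at least 2-fold higher, a share near the 9.93% of all genes, and 2 were lower, beside 6.29% of all genes. Their median log2 ratio was -0.072. The highest with at least 100 UMIs were Sv2b, a vesicle glycoprotein (102 Tg7 and 23 Wild-type UMIs, ratio 3.58 [2.26 to 5.90]), Sncb, which encodes β-synuclein (1430 and 406 UMIs, 2.84 [2.54 to 3.18]), and Myo5a, the myosin that carries granules along actin (1178 and 352 UMIs, 2.70 [2.40 to 3.05]). The lowest were Rims3, a small member of the RIM family (333 and 820 UMIs, 0.328 [0.288 to 0.373]), Stx16, a SNARE of the trans-Golgi network (0.512 [0.428 to 0.611]), and Esyt1, a tether between endoplasmic reticulum and plasma membrane (0.520 [0.448 to 0.602]). Beside Rims3, the other gene at least 2-fold lower was Mlph, named here after its values were seen. Mlph encodes melanophilin, which links Rab27a to myosin Va in melanocytes, and had 0 Tg7 UMIs and 81 Wild-type UMIs in insulin cells, at least 33.5-fold lower with a floor of 3 UMIs over the class (exact 95% lower limit 26.6). All 9 exocyst subunits were measured and 0 passed 2-fold, with a median log2 ratio of 0.25. Of the 20 measured SNAREs outside the member list 0 passed 2-fold either, and 15 of them had ratios below 1 on the non-hormone scale. Scaling to all UMIs moves all of these ratios upward by 1 factor.

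Genes with and without a seed match were set side by side in insulin cells. The median log2 ratio was -0.14 for the 1574 measured genes with GTCTTCC and -0.02 for the 10036 without, whose 3′ UTRs were shorter (median 2310.5 and 1070 bases). Among the members it was -0.12 for the 6 with a match and -0.09 for the 29 without. The members with a match ran from Doc2b (0.179) and Napa (0.633) through Nsf (0.828) and Cplx2 (1.02) to Rab3b (2.79) and Rab3c (15.3), so they lay on both sides of 1. In Gcg cells the median log2 ratio was -0.09 for measured genes with a match and -0.07 for those without. Among the members there it was -0.06 for the 5 with a match and -0.22 for the 28 without.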

How the data were processed

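Per the labels and the study's methods, the authors counted UMIs with Cell Ranger 3.0.2 (bcl2fastq 2.17.1.14, STAR) on mm10, and the deposited UMI counts of both libraries were used as given. No source used here names the gene annotation. Barcodes under 1000 UMIs or over 20% mitochondrial UMIs (117 Tg7 and 100 Wild-type) were dropped, and Scrublet (scanpy 1.11.5, expected rate 0.8% per 1000 barcodes) removed 14 Tg7 and 6 Wild-type doublets in place of the study's caller. Cell classes were rebuilt from hormone UMIs and may differ from the study's clusters. A cell was positive for a hormone when its share of UMIs reached 0.1 of the median among cells of its library led by that hormone, which for insulin was 2.61% of UMIs in Tg7 and 6.27% in Wild-type. Counts were summed per class and library and scaled to genes other than the 7 hormone genes (Ins1, Ins2, Iapp, Gcg, Sst, Ppy, Pyy). Ratios carry conditional exact binomial intervals, levels exact Poisson intervals and shares exact Clopper-Pearson intervals. The ratio intervals were checked only on simulated Poisson counts, which hold no variation between cells, mice or libraries. Named genes needed at least 100 UMIs and a ratio of at least 2 or at most 0.5, or the widest gap between classes, while all other members are given by role. For each class of Wild-type cells, members at least 2-fold above every other class were named. TMM factors came from edgeR 4.0.16. The members and lists were chosen with earlier results of these data known. Seed matches were searched in the longest 3′ UTR of each gene in the NCBIM37 annotation.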

Additional observations from a re-analysis of the deposited data

Results flagged for a closer look

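Rab3c stood out because its ratio of Tg7 over Wild-type went in opposite directions in the 2 main classes. It was 15.3 [7.59 to 36.2] in insulin cells, from 152 Tg7 and 8 Wild-type UMIs, and 0.600 [0.423 to 0.845] in Gcg cells, from 56 Tg7 and 94 Wild-type UMIs. The difference between the classes was not tested, since each genotype was 1 library.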

How the results depend on the processing

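No paired analysis was possible because each genotype was 1 library, and for the same reason no replicate could be left out. Of 135 alternative values of the main results, 119 stayed within the spread or within 1.5 times the count and 16 moved. For a median, the spread ran from the median lower limit to the median upper limit of the members' counting intervals. That is not a spread of the median itself, so a median counted as having stayed is not thereby shown to be stable. Scaled to all UMIs, the median log2 ratio of the members in insulin cells was 0.73 and 14 members were at least 2-fold higher. On that scale alone Ptprn (3.49), Cadps2 (3.30), Syt11 (3.22), Stx1a (2.97), Sytl5 (2.92), Syt7 (2.31), Rab3d (2.18), Stxbp5l (2.13) and Rims2 (2.01) passed 2-fold. In the same scaling 13 insulin-cell ratios whose interval lay below 1 moved above 1: Snap25 to 1.45, Stx3 to 1.33, Stx4a to 1.33, Vamp2 to 1.64, Vamp3 to 1.22, Napa to 1.11, Nsf to 1.45, Syt4 to 1.03, Syt13 to 1.28, Syt14 to 1.08, Rph3al to 1.01, Rimbp2 to 1.59 and Unc13a to 1.48. That scaling adds hormone UMIs, which differ between the genotypes, to the denominator. In Wild-type, 4 members were then at least 2-fold higher and 12 lower in insulin than in Gcg cells. The count of members at least 2-fold lower in insulin cells was 1 with a minimum of 100 UMIs and with a hormone threshold of 0.05, both of which leave Doc2b under the minimum. In Gcg cells the count at least 2-fold lower was 0, and it was 2 scaled to all UMIs, with a threshold of 0.2 and with cells classed by their leading hormone. It was 1 with every cell weighted equally, without the top cell of each gene, with no minimum of UMIs, with no barcode filter, with a threshold of 0.05 and with 1 threshold for both libraries. With cells classed by their leading hormone, 2 members were at least 2-fold lower in insulin than in Gcg cells of Tg7, against 4. For these other changes the cause was not tested. The median log2 ratio ran from -0.41 to 0.23 in Sst and from 0.05 to 0.86 in Ppy cells, and a minimum of 100 UMIs left no Sst value. These Sst and Ppy medians were all counted as having stayed. Leaving out 1 Tg7 Ppy and 2 Wild-type insulin cells with markers of other cell types was added after seeing the data and moved none of the main results. Each class is 1 library per genotype, so mouse, library and genotype cannot be told apart.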

Other observations

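Cells positive for several hormones entered no main comparison above, but were included in the alternative with cells classed by their leading hormone. In Tg7, Sytl4 was at 0.164 [0.103 to 0.249] per 10000 non-hormone UMIs in 57 cells with insulin and Gcg, 0.192 [0.124 to 0.283] in 55 with insulin and Ppy and 0.183 [0.0973 to 0.313] in 36 with insulin and Sst, while 13 Wild-type cells with insulin and Sst had 0.779 [0.494 to 1.17]. All 3 Tg7 intervals overlap that of Tg7 insulin cells. Rab3b reached 1.56 [1.28 to 1.88] in Tg7 cells with insulin and Sst and 1.46 [1.05 to 1.96] in the Wild-type cells with that pair. Stxbp5l, the tomosyn that was high in Sst cells, was at 1.04 [0.817 to 1.31] and 1.12 [0.770 to 1.57] in those same cells. Rab3c was at 0.261 [0.182 to 0.363] in the Tg7 cells with insulin and Gcg.

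Tg7 insulin cells also differed by how much of their insulin came from Ins1, a gene outside the member list. Sytl4 was at 0.150 [0.0720 to 0.276] per 10000 in 56 cells with Ins1 under 1% of insulin UMIs, 0.216 [0.184 to 0.251] in 374 cells with 1 to 10%, and 0.323 [0.246 to 0.417] in 102 cells with at least 10%. The 469 Wild-type insulin cells with at least 10% had 2.61 [2.501 to 2.73]. Ptprn was between 8.11 and 8.73 per 10000 in all 3 Tg7 bins, against 4.30 in those Wild-type cells.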
